A study of Mus musculus with 4 samples.

Results

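The NR2F1 signal was examined at 9 genes of proneural and neuronal differentiation factors: *Neurog1*, *Neurog2*, *Neurod1*, *Neurod4*, *Atoh1*, *Ptf1a*, *Insm1*, *Ebf1* and *Ebf2*. The called peaks of the 4 libraries were merged where they overlapped by at least 1 bp, and every merged region within the gene body or 20 kb on either side of it was taken. This gave 233 of the 263639 merged regions of the series. Of these 233 regions, 40 were called in all 4 libraries with 10 or more cut sites in 2 or more of them, and so belonged to the 35770 regions that were tested. A further 27 of the regions had a peak in 3 libraries, 46 in 2 libraries and 120 in 1 library.

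Proneural factors are basic helix-loop-helix (bHLH) transcription factors that commit a neural progenitor to become a neuron. The neurogenins act early, in progenitors, and switch on NEUROD1 and NEUROD4, which carry the programme on in the newborn neuron. Among dorsal progenitors of the hindbrain and cerebellum, PTF1A directs cells towards inhibitory neurons, and ATOH1 directs those of the rhombic lip towards excitatory ones. INSM1 is a zinc-finger factor of cells that are leaving the cycle, and EBF1 and EBF2 are helix-loop-helix factors of young neurons, with EBF1 known for its part in the path of migrating facial motor neurons. NR2F1, also called COUP-TFI, is an orphan nuclear receptor that binds the sequence AGGTCA, often as a pair.

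In single-cell CUT&Tag an antibody, here against NR2F1, guides a Tn5 transposase to the chromatin where its target sits, and the cuts made there (cut sites) are counted as signal. All 4 libraries came from E10.5 mouse embryos carrying the Isl1MN-GFP reporter, which marks motor neurons, and the dissected tissue was the region of rhombomere 4 (r4) of the hindbrain with adjacent tissue. Of these, 2 libraries were WT, each from 26 pooled embryos, and 2 were Fam5snv/snv, from 8 and 16 pooled embryos. Fam5snv/snv mice are homozygous for a knocked-in single-nucleotide change in cRE2, a regulatory element of *Gata2*. The sort took GFP-positive cells and was opened to GFP-negative cells at its end, so other cells of the tissue may be among the barcodes. In summed counts, fewer cells with signal and less signal per cell cannot be told apart, and NR2F1 signal at a gene does not measure that gene's expression.

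The sequences below are the 13-base direct repeats of AGGTCA (2 copies with 1 base between them) that matched best within the 40 tested regions, and the only AGGTCA found in their RefSeq promoters, which cover 7 of the 9 genes. They were read from the mm10 genome, and the promoter from RefSeq for GRCm38.p6. Each is given 5′ to 3′ on the strand named, with the repeat or, in the promoter, the core in capitals (TGACCT, which is AGGTCA read on the other strand). Both copies match AGGTCA in full in the upstream *Neurog1* repeat and in the *Ebf1* repeat, the *Ebf2* repeat has 1 mismatch, and the *Neurod4* repeat, shown because it lies in the region of highest signal density at these genes, has 2.
*Neurog1* upstream, chr13:56262316-56262388, plus strand: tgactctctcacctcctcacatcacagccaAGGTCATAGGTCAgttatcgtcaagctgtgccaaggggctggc
*Ebf1* intron, chr11:44698385-44698457, plus strand: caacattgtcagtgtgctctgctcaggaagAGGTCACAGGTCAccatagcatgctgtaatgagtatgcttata
*Ebf2* intron, chr14:67300425-67300497, plus strand: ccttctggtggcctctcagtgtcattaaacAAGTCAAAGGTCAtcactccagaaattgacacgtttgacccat
*Neurod4* upstream, chr10:130283104-130283176, minus strand: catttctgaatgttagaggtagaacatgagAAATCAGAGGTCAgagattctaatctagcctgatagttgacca
*Neurog1* promoter, chr13:56252250-56252327, minus strand: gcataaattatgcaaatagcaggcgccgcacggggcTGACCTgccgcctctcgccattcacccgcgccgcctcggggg

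The *Neurog1* repeat lay 10.2 kb before the start of the gene and inside a called peak in all 4 libraries, although that peak held only 4 cut sites in WT replicate 1. The *Ebf2* repeat, 67.2 kb into the gene, also lay inside a peak in all 4. The perfect *Ebf1* repeat, 81.1 kb into the gene, lay inside a peak of WT replicate 2 and of Fam5snv/snv replicate 1 but not of the other 2 libraries, although each of them had a peak in the same merged region. The *Neurod4* repeat was likewise inside a peak of WT replicate 2 and Fam5snv/snv replicate 1. Over the 40 tested regions there were 22 repeats with up to 2 mismatches, of which 13 lay inside a peak in all 4 libraries, 5 in 3 and 4 in 2. By mismatch, 2 were perfect, 1 had 1 mismatch and 19 had 2.

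The libraries differed in depth and in how much of the genome their peaks covered. The total was 3083946 and 3580517 cut sites in WT against 8967987 and 10341894 in Fam5snv/snv, in peaks that covered 31.0 and 93.1 Mb for WT and 108 and 143 Mb for Fam5snv/snv. WT replicate 1 thus stood apart with the smallest covered length, and it had the fewest peaks (42168, against 137996 to 170993 in the others). It shared 8 to 11 barcodes with each other library, and the other pairs shared 3 to 12. Over 6 branchial motor neuron markers (*Isl1*, *Phox2a*, *Tbx20*, *Chat*, *Slc18a3* and *Hoxb1*), the 5 tested promoter regions, of which *Chat* and *Slc18a3* share 1, summed to 309 and 315 cut sites per 1000000 (CPM) in WT against 348 and 352 CPM in Fam5snv/snv. All 5 had a fitted log2 fold change above 0 (0.02 to 0.46, median 0.23, against -0.21 for all tested promoter regions), and none passed the test (smallest adjusted p = 0.608, edgeR). Endothelial markers, of which *Erg* and *Sox18* had a tested promoter region and *Kdr* and *Cdh5* did not, summed to 89.7 and 77.4 CPM in WT against 139 and 136 CPM in Fam5snv/snv. The tested promoter regions of progenitor markers summed to 249 and 255.7 CPM in WT against 239 and 207 CPM in Fam5snv/snv, and those of blood markers to 37.8 and 51.3 CPM against 31.9 and 36.5 CPM. The genotypes thus did not overlap in these 4 sums, with Fam5snv/snv above WT for motor neuron and endothelial markers and below WT for progenitor and blood markers. Among all single tested regions, both Fam5snv/snv libraries lay above both WT libraries at 23.2% and below both at 21.4%. Of the 4 progenitor regions, 3 were lower and 1 was higher. Their median log2 fold change was -0.27, next to -0.21 for all tested promoter regions. The genotypes overlapped for interneuron markers (109 to 196 CPM over the libraries), neural crest markers (30.2 to 52.8 CPM) and mesenchyme markers (50.4 to 87.9 CPM). The part of these other cell types in the results below was not tested.

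CPM of a region was scaled to the cut sites of each library in tested regions with TMM factors. Since cut sites were counted only inside each library's own peaks, a library with narrow peaks has fewer counted sites at a region but more of them per covered kb. Levels were therefore compared between genes as CPM per kb of the whole gene window (the gene with 20 kb on either side), where CPM was scaled to the cut sites summed over the windows of all genes. On that scale the WT level was highest at *Insm1*, at 6.82 CPM per kb in replicate 1 and 4.55 in replicate 2 (mean 5.69 ± 1.61, SD, n = 2). *Neurog1* came next with 2.29 and 2.74 CPM per kb (2.52 ± 0.316). Both *Insm1* libraries lay above both *Neurog1* libraries, and both *Neurog1* libraries above those of every gene that follows.

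*Neurod1* (1.91 ± 0.154 CPM per kb) and *Neurog2* (1.84 ± 0.361) followed and overlapped with each other. *Neurod4* (1.47 ± 0.0611) and *Ebf2* (1.45 ± 0.00751) also overlapped with each other and lay below both. On this scale the lowest levels were at *Ebf1* (0.740 ± 0.0789), *Ptf1a* (0.571 ± 0.640) and *Atoh1* (0.488 ± 0.078). *Ptf1a* could not be ordered against *Ebf1* or *Atoh1*, since its 2 WT libraries, at 0.118 and 1.02, lay on either side of both. The *Insm1* window also holds the promoter of *Cfap61*, inside the same merged region as that of *Insm1*, so this level belongs to both genes. The order depends on the length of the window, which was 431 kb at *Ebf1* and 41.7 kb at *Neurog1*. Summed over the window, the WT mean was 319 CPM at *Ebf1*, 245 at *Insm1* and 105 at *Neurog1*. CPM of a window and CPM of a single region are scaled to different totals, so they cannot be set against each other. Per covered kb the WT libraries held 24.97 and 9.11 CPM at *Ebf1*, and 22.4 and 9.03 CPM at *Neurog1*.

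**Figure D1:**
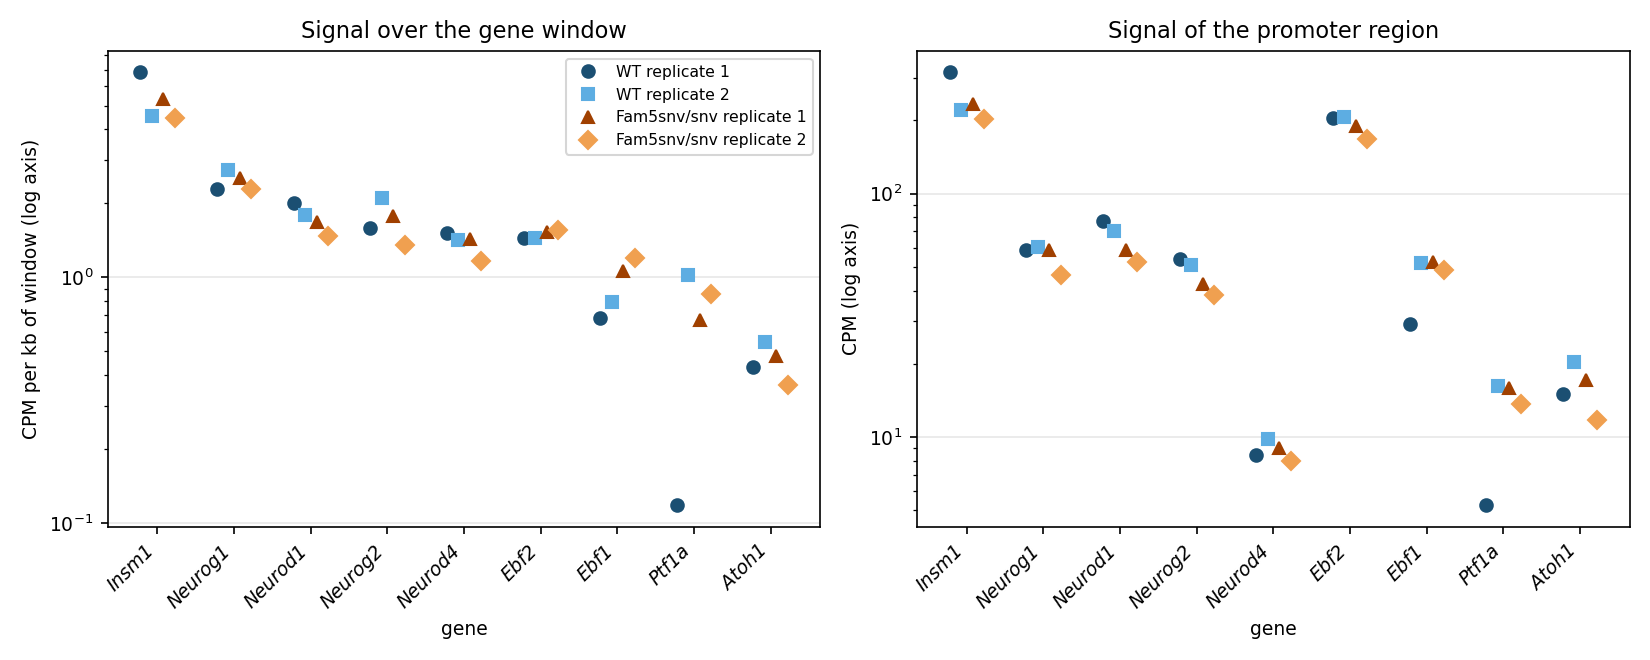
Level of NR2F1 signal at the 9 genes in each of the 4 libraries. Left, CPM per kb of gene window, with genes in the order of their WT mean; right, CPM of the merged region over the gene's promoter; both y axes are logarithmic and each symbol is 1 library. *Insm1* led on the left, *Ptf1a* was spread most by WT replicate 1, and the promoter region of *Neurod4*, the shortest of the 9, held under 10 CPM in every library.

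The share of the signal in the merged promoter region differed between genes. At *Insm1*, 84.9 to 94.6% of the cut sites in the window fell in the promoter region, depending on the library. At *Neurod1* this share was 65.8 to 76.4% and at *Atoh1* 62.4 to 72.9%. At *Neurod4* it was only 9.45 to 10.7%, and at *Ebf1* 7.67 to 11.6%, so that most counted signal of these genes lay outside the promoter region. These shares depend on the length of the merged region, which was 941 bp at *Neurod4* and 7884 bp at *Neurog1*. At *Neurod4*, a region that began 1263 bp upstream of the gene held 154 of the 254 cut sites of WT replicate 1. The share was intermediate at *Neurog1* (39.5 to 54.4%), *Neurog2* (43.8 to 70.6%) and *Ebf2* (37.1 to 52.5%), and ranged from 28.9 to 93.8% at *Ptf1a*.

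**Figure D2:**
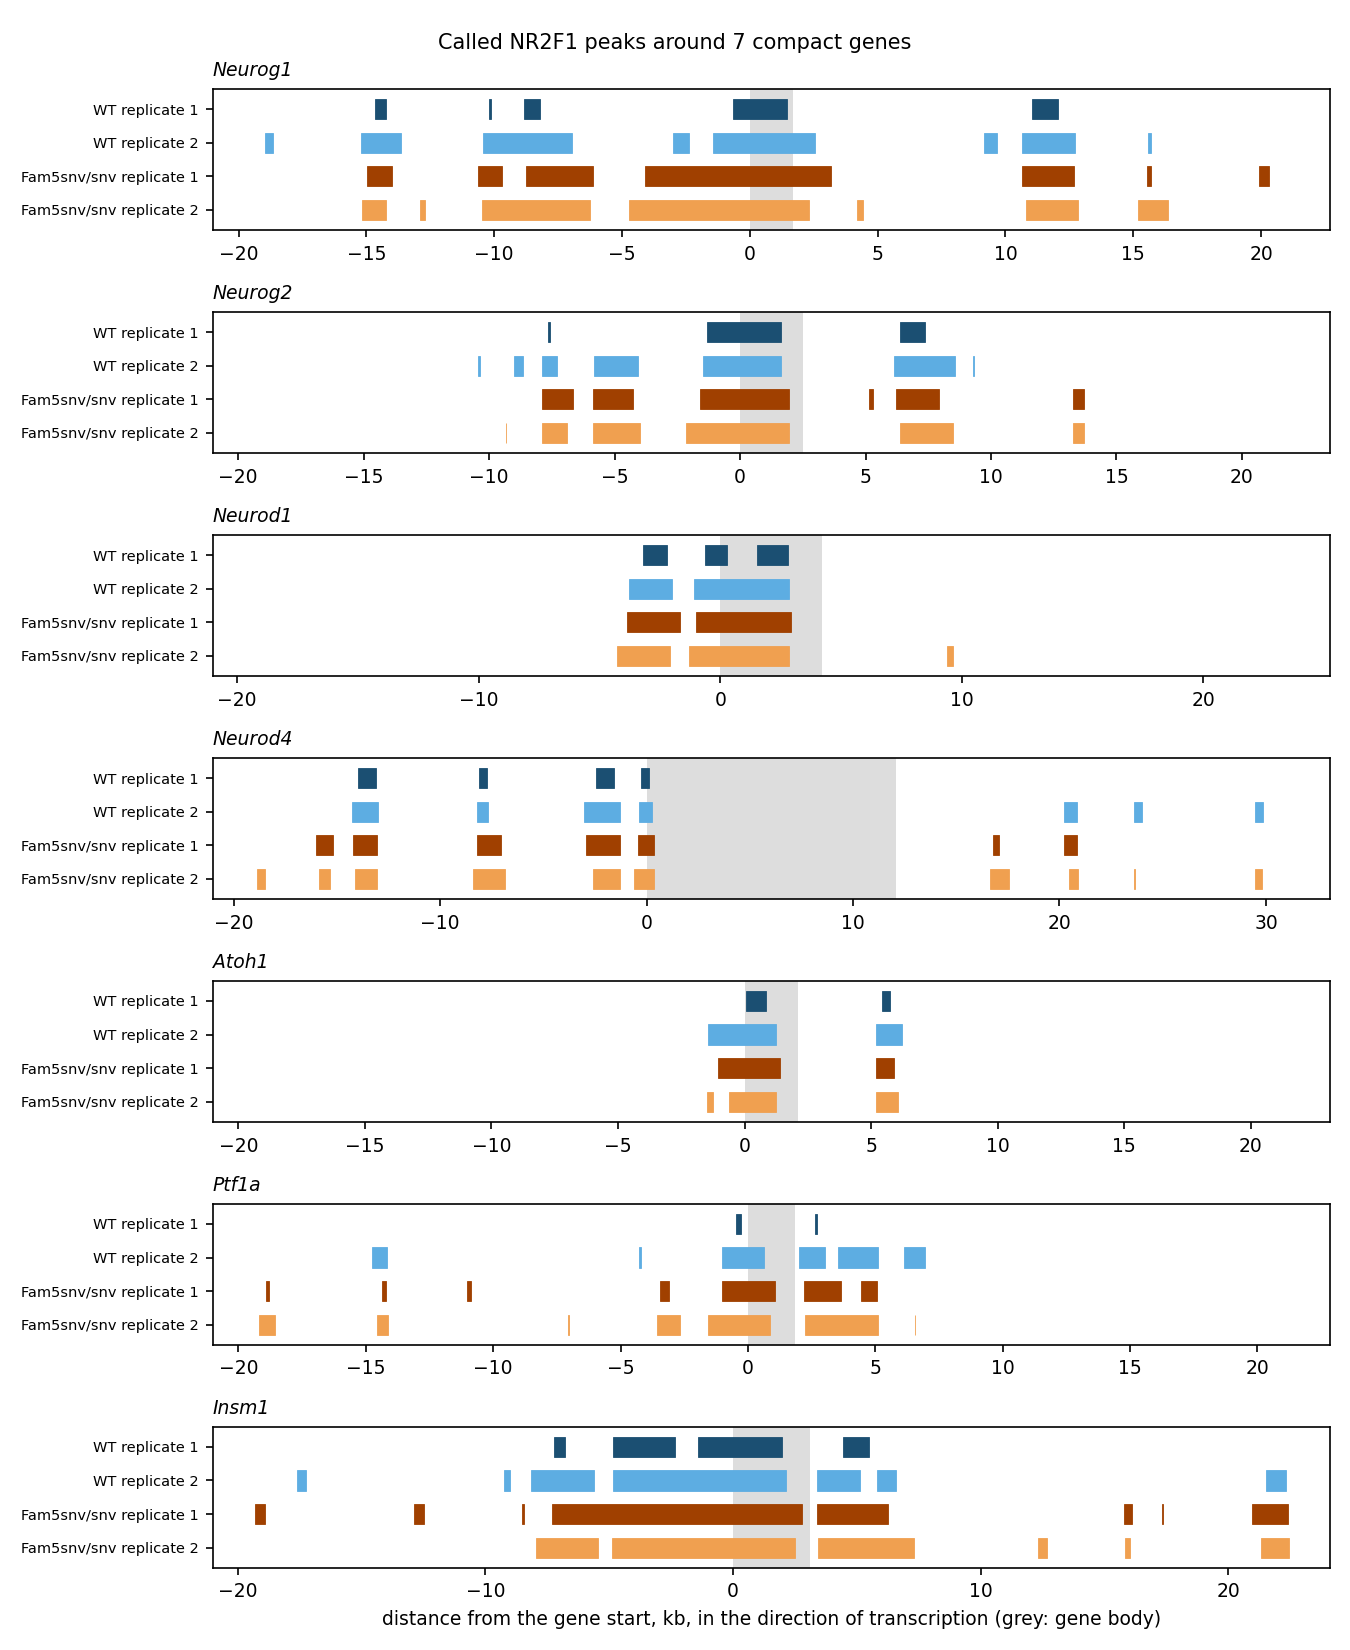
Called NR2F1 peaks of each library (rows) around the 7 compact genes, drawn to scale by distance from the gene start in kb, with the gene body in grey. Every gene had a peak at or next to its start in all 4 libraries, peaks of WT replicate 1 covered the least at each gene, and *Neurod4* had a row of 3 shared peaks upstream of its start.

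The neurogenins, which start the programme in progenitors, each had signal at the promoter and at a distance. The *Neurog1* promoter region (chr13:56249004-56256887) held 58.9 and 60.1 CPM in WT against 58.6 and 46.2 CPM in Fam5snv/snv. Its log2 fold change, Fam5snv/snv minus WT, was -0.18 ± 0.21 (SE, adjusted p = 0.798, edgeR). Per covered kb, the highest *Neurog1* region in WT was another one, 11.7 kb past the gene start in an exon of *4930550C17Rik* (chr13:56239314-56241532), with 31.9 and 45.02 CPM in WT against 30.9 and 34.9 CPM in Fam5snv/snv. The Fam5snv/snv values overlapped with the WT values there, and the log2 fold change was -0.22 ± 0.25 (adjusted p = 0.792).

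The region that holds the perfect *Neurog1* repeat (chr13:56258286-56262790) held 11.6 and 24.97 CPM in WT against 29.7 and 25.4 CPM in Fam5snv/snv. Both Fam5snv/snv libraries were above both WT libraries, the nearer one by little, and the log2 fold change of 0.59 ± 0.39 did not pass the test (unadjusted p = 0.174, adjusted p = 0.645, edgeR). It was 0.13 without WT replicate 1 (adjusted p = 0.848) and 1.25 without WT replicate 2 (adjusted p = 0.0195), a setting in which 17.7% of all regions were called. The fourth tested *Neurog1* region, 14.4 kb upstream, held 3.96 to 11.3 CPM over the libraries.

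The *Neurog2* promoter region (chr3:127630994-127635085) held 54.0 and 51.0 CPM in WT against 42.5 and 38.4 CPM in Fam5snv/snv. Both Fam5snv/snv libraries lay below both WT libraries, with a log2 fold change of -0.37 ± 0.20 (unadjusted p = 0.106, adjusted p = 0.607, edgeR). The region of highest density at *Neurog2* lay 7.35 kb past its start (chr3:127639280-127641686), where WT held 22.1 and 39.4 CPM and Fam5snv/snv 24.3 and 14.0 CPM. The genotypes overlapped, and the log2 fold change was -0.68 ± 0.40 (unadjusted p = 0.132, adjusted p = 0.624). Each library moved this value, to -1.05 without WT replicate 1, -0.20 without WT replicate 2, -1.13 without Fam5snv/snv replicate 1 and -0.34 without Fam5snv/snv replicate 2. A region 7.28 kb upstream with few cut sites had 0.350 CPM in WT replicate 1 and 6.32 to 9.84 CPM in the other libraries.

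NEUROD1 and NEUROD4 act below the neurogenins. The *Neurod1* promoter region (chr2:79453836-79458042) also overlaps exons of *Cerkl* and *Gm26755* and held 77.1 and 70.0 CPM in WT against 58.9 and 52.6 CPM in Fam5snv/snv. Its p was the smallest of the 40 regions, with both Fam5snv/snv libraries below both WT libraries and a log2 fold change of -0.40 ± 0.20 (95% interval -0.87 to 0.07, unadjusted p = 0.0836, adjusted p = 0.595, edgeR). It was also the *Neurod1* region of highest WT density. The only other tested *Neurod1* region, 2.98 kb upstream in an exon of *Gm26755*, held 23.8 and 33.8 CPM in WT against 29.8 and 26.4 CPM in Fam5snv/snv, and its log2 fold change was -0.03 ± 0.28.

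*Neurod4* differed from *Neurod1* in where its signal lay. Its promoter region (chr10:130279899-130280839) was short (941 bp), with 8.41 and 9.85 CPM in WT against 9.02 and 7.97 CPM in Fam5snv/snv. A region 2.15 kb upstream of the start (chr10:130281503-130283276) held 54.0 and 42.2 CPM in WT against 43.5 and 28.7 CPM in Fam5snv/snv. Per covered kb this upstream region had 62.1 and 23.9 CPM in WT, which put its mean at the 93.8th percentile of all tested regions, the highest of the 40. The genotypes overlapped at both regions, with log2 fold changes of -0.10 ± 0.49 (adjusted p = 0.959) at the promoter and -0.41 ± 0.28 (adjusted p = 0.647) at the upstream region. The other 2 tested *Neurod4* regions lay 7.64 and 13.6 kb upstream and held 8.44 to 22.9 CPM.

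*Atoh1* and *Ptf1a* are the factors of dorsal lineages. Per covered kb, the *Atoh1* promoter region had the lowest WT mean of the 9 promoter regions, at the 18.2th percentile of all tested regions, and that of *Ptf1a* was at the 50.5th percentile. The *Atoh1* promoter region (chr6:64727640-64730543) held 15.1 and 20.4 CPM in WT against 17.2 and 11.8 CPM in Fam5snv/snv, with a log2 fold change of -0.29 ± 0.38 (adjusted p = 0.822). A region 5.70 kb past its start (chr6:64734301-64735356) held 5.61 and 9.496 CPM in WT against 6.84 and 7.08 CPM in Fam5snv/snv. These were the only merged regions in the *Atoh1* window, and the genotypes overlapped at both.

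The *Ptf1a* promoter region (chr2:19444105-19446710), shared with its antisense gene *Ptf1aos*, held 5.25 and 16.2 CPM in WT against 15.9 and 13.7 CPM in Fam5snv/snv. The low value of WT replicate 1 came from a peak that held 15 cut sites. The log2 fold change of 0.46 ± 0.56 (adjusted p = 0.806) became -0.14 without that library and 1.49 without WT replicate 2. At the second *Ptf1a* region, 3.56 kb past the start, WT replicate 1 held 0.350 CPM, which is 1 cut site, and the other libraries 14.6 to 27.4 CPM. The gene window of *Ptf1a* held 16 cut sites in WT replicate 1 against 159 in WT replicate 2, the widest gap between replicates at these genes.

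*Insm1* had the promoter region of highest density. Per covered kb it held 49.6 and 23.1 CPM in WT, at the 90.1th percentile of all tested regions. The promoter region, 10.9 kb long after merging (chr2:146213760-146224696), held 315 and 220 CPM in WT against 233 and 203 CPM in Fam5snv/snv, and its WT mean was rank 111 of the 35770 tested regions without regard to length. The genotypes overlapped, with a log2 fold change of -0.30 ± 0.26 (adjusted p = 0.724). Leaving out WT replicate 1 gave -0.02, and leaving out WT replicate 2 gave -0.53. Where the comparison was kept to regions that every library's peaks covered to at least 50%, it was 0.02. The second *Insm1* region, 5.35 kb past the start, held 17.9 and 24.3 CPM in WT against 27.8 and 24.7 CPM in Fam5snv/snv, so both Fam5snv/snv libraries were above both WT libraries, by 0.31 ± 0.29 on the log2 scale (adjusted p = 0.739).

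The pair of *Ebf* genes is long, and its signal was spread over many regions. At *Ebf1*, 11 of 13 tested regions were intronic. At *Ebf2* 3 of 8 were, while 4 overlapped an exon and 1 was the promoter region. *Ebf2* had 8 tested regions of 63. Its promoter region, 14.1 kb after merging (chr14:67228387-67242516), held 205 and 207 CPM in WT against 190 and 169 CPM in Fam5snv/snv, at rank 250 of all tested regions in WT. Both Fam5snv/snv libraries were below both WT libraries, with a log2 fold change of -0.20 ± 0.21 (adjusted p = 0.773). The intron region with the repeat that has 1 mismatch (chr14:67298819-67302862) held 82.0 and 73.5 CPM in WT against 63.6 and 72.1 CPM in Fam5snv/snv, again with no overlap, and a log2 fold change of -0.20 ± 0.20 (adjusted p = 0.764). By WT density the first *Ebf2* region was 112 kb into the gene (chr14:67343902-67345989), with 53.6 and 29.9 CPM in WT, 44.6 and 39.2 CPM in Fam5snv/snv and a log2 fold change of 0.00 ± 0.30 (adjusted p = 0.998). Over the whole window, *Ebf2* held 345 and 342 CPM in WT against 363 and 370 CPM in Fam5snv/snv, a log2 fold change of 0.09 ± 0.16 (95% interval -0.30 to 0.49, adjusted p = 0.912).

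*Ebf1* was the gene of these 9 whose window differed most between the genotypes. The window held 295 and 343 CPM in WT against 457 and 516 CPM in Fam5snv/snv. Both Fam5snv/snv libraries lay above both WT libraries, and the gap between the genotypes was wider than the gap within either. The log2 fold change was 0.61 ± 0.18 (95% interval 0.15 to 1.07), with an unadjusted p = 0.0184 and an adjusted p = 0.758 over the 17981 genes tested with edgeR. DESeq2 gave 0.60 with an adjusted p = 0.0151. With edgeR, leaving out WT replicate 1 gave 0.51 and leaving out WT replicate 2 gave 0.72. Leaving out Fam5snv/snv replicate 1 gave 0.69 and leaving out Fam5snv/snv replicate 2 gave 0.52. A fit with 1 library left in a genotype takes its spread from the other genotype alone.

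The *Ebf1* difference went with the extent of the called peaks. Peaks covered 11.8 and 37.6 kb of the window in WT and 51.3 and 77.8 kb in Fam5snv/snv. Set against what each library's peaks covered in the whole genome, this was 0.381 and 0.404 kb per Mb in WT and 0.475 and 0.544 kb per Mb in Fam5snv/snv, so the *Ebf1* share was higher in both Fam5snv/snv libraries. The same share at *Ebf2* was 0.337 to 0.354 kb per Mb in all 4 libraries. Of the 115 merged *Ebf1* regions, 13 had a peak in WT replicate 1, 45 in WT replicate 2, 57 in Fam5snv/snv replicate 1 and 92 in Fam5snv/snv replicate 2. Peaks in both Fam5snv/snv libraries and neither WT library made up 25 of these 115 regions (21.7%), against 8.79% of all merged regions, and none of the 115 had peaks in both WT libraries alone, which only 47 of the 263639 merged regions (0.0178%) had. Within the regions called in all 4 libraries, the *Ebf1* sum still differed by 0.39 on the log2 scale (unadjusted p = 0.0184, adjusted p = 0.440, edgeR). Per covered kb the order was the reverse, with 24.97 and 9.11 CPM per kb in WT and 8.90 and 6.64 CPM per kb in Fam5snv/snv. The part of peak width and depth in the difference was not tested.

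**Figure D3:**
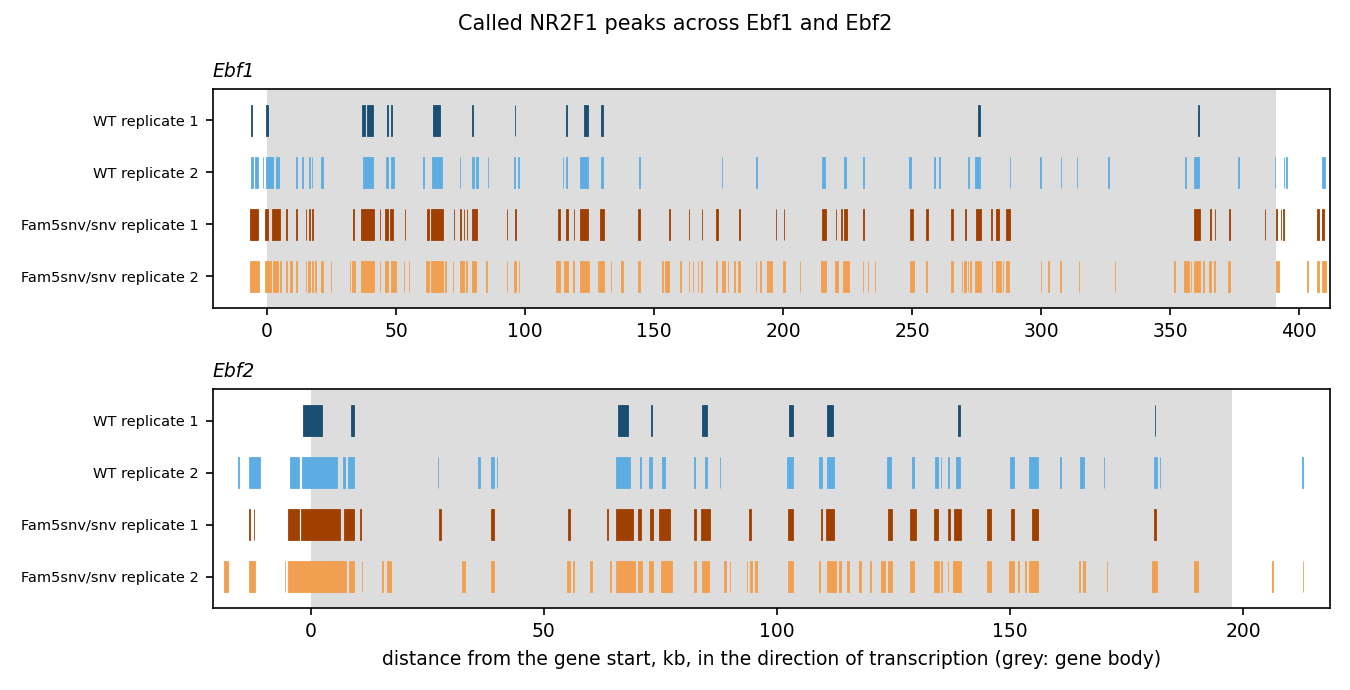
Called NR2F1 peaks of each library (rows) across the windows of *Ebf1* and *Ebf2*, by distance from the gene start in kb, with the gene body in grey. The *Ebf1* peaks were in 13 merged regions in WT replicate 1 and in 92 in Fam5snv/snv replicate 2, and those shared by all libraries lay mainly in the first part of the gene.

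All 13 tested *Ebf1* regions had a log2 fold change above 0, with a median of 0.35. The 13 regions share libraries and are not replicates. All 13 were also above the median of all tested regions (0.02), which include promoter regions with a median of -0.21. Only 1 of the 13 was a promoter region. All tested regions outside promoters had a median of 0.19, and 63.5% of them were above 0. The lower quartile of the 13 (0.14) and their smallest value (0.05) lay below that median. Other scalings moved all regions together: with all cut sites in peaks and no further factor, 10 of 13 were above 0 and 13 of 13 above the median of all (-0.09), and per covered length 1 of 13 was above 0 and 7 of 13 above the median of all (-0.76). Without WT replicate 1, 9 of 13 were above both. When all regions called in at least 2 libraries were fitted, 13 of 13 were above 0 but only 2 of 13 above the median of all (0.61). Of the 13 regions, 11 were intronic. By CPM the highest were 65.8 kb into the gene (chr11:44680861-44685397), with 93.2 and 77.4 CPM in WT against 83.8 and 98.5 CPM in Fam5snv/snv, and 38.9 kb into it, with 90.03 and 66.8 CPM in WT against 81.3 and 81.6 CPM in Fam5snv/snv. Both exceeded the longer promoter region (chr11:44616353-44622727), which had the highest WT density at *Ebf1* and held 29.1 and 52.1 CPM in WT against 52.4 and 48.7 CPM in Fam5snv/snv. The promoter region differed by 0.32 ± 0.29 on the log2 scale (adjusted p = 0.739), by -0.05 without WT replicate 1 and by 0.80 without WT replicate 2.

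The *Ebf1* region of smallest p lay 96.2 kb into the gene (chr11:44713123-44713823). It held 0.701 and 3.52 CPM in WT against 5.33 and 9.74 CPM in Fam5snv/snv, with a log2 fold change of 1.83 ± 0.92 (95% interval -0.35 to 4.00, unadjusted p = 0.0871, adjusted p = 0.596, edgeR). It was 1.09 without WT replicate 1 (adjusted p = 0.393) and 3.39 without WT replicate 2 (adjusted p = 0.0194). This region was the only one of the 40 at which both Fam5snv/snv libraries were also above both WT libraries per covered kb. The values rest on few cut sites, 2 and 10 in WT replicates 1 and 2 against 39 and 77 in Fam5snv/snv. The next, 123 kb into the gene (chr11:44738598-44741855), held 20.7 and 35.9 CPM in WT against 35.4 and 43.4 CPM in Fam5snv/snv (0.48 ± 0.31, unadjusted p = 0.166, adjusted p = 0.641). Leaving out WT replicate 1 gave 0.13 there, against 0.93 when WT replicate 2 was left out. The region with the perfect repeat (chr11:44696537-44699107) held 8.76 and 15.1 CPM in WT against 13.4 and 12.9 CPM in Fam5snv/snv, with the Fam5snv/snv values between those of WT and a log2 fold change of 0.14 ± 0.43.

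**Figure D4:**
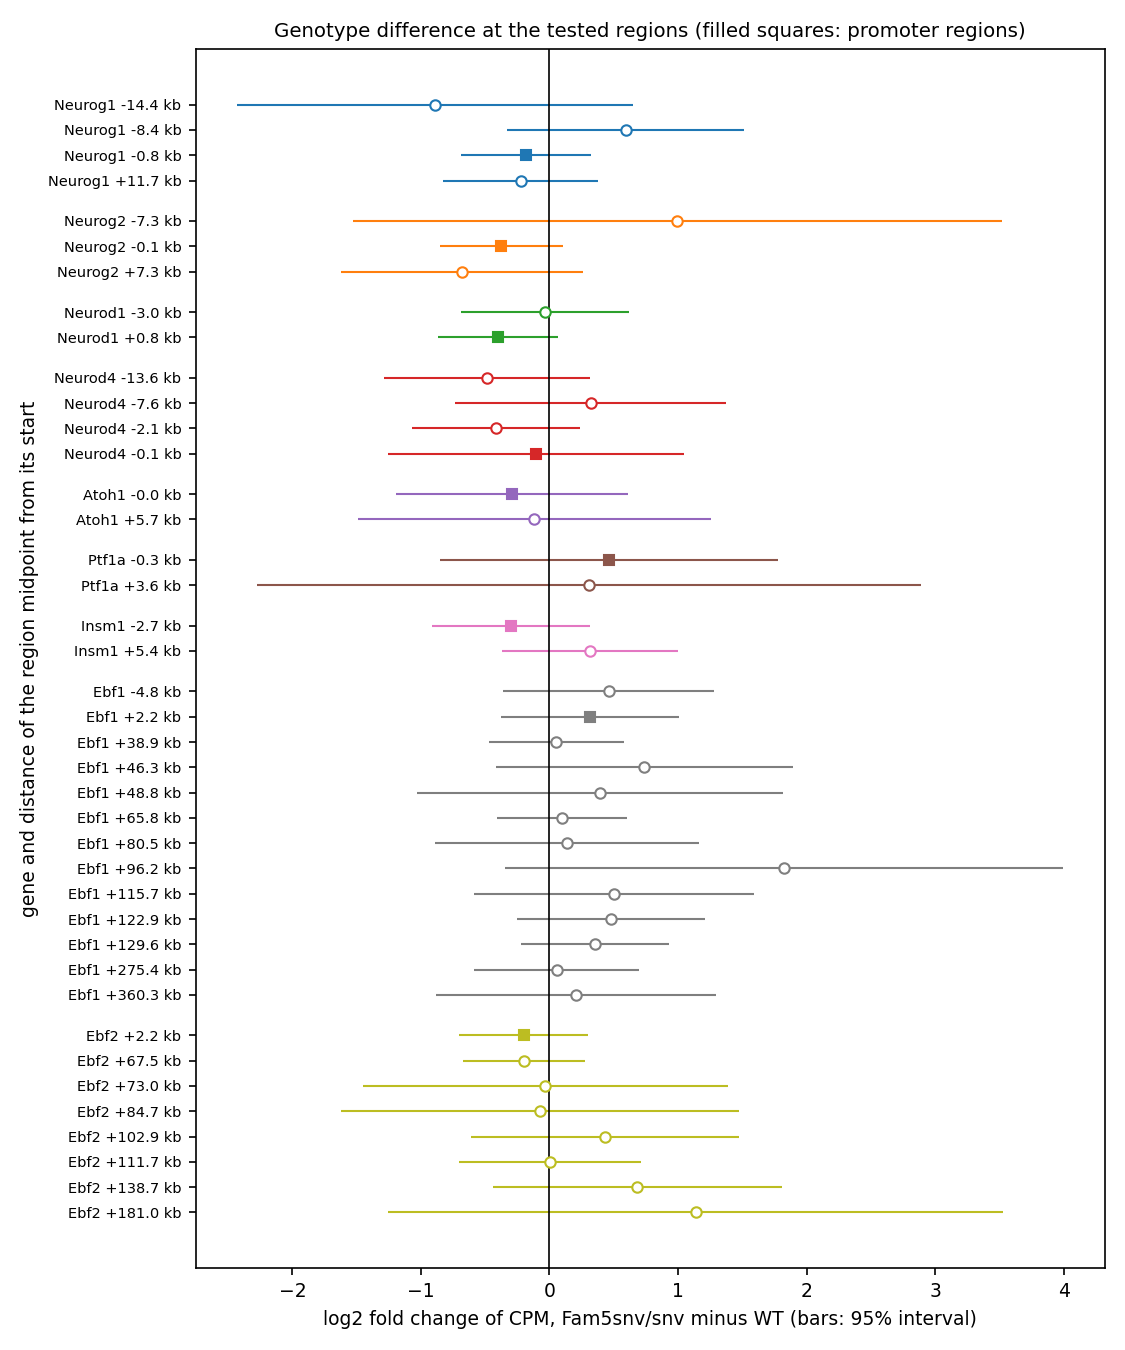
Log2 fold change of CPM (Fam5snv/snv minus WT, edgeR) at the 40 tested regions, labelled by gene and distance of the midpoint from the gene start, with 95% intervals as bars and promoter regions as filled squares. Every interval crosses 0, the 13 *Ebf1* values all lie above 0 (per covered length 1 of 13 did), and the widest intervals belong to regions with few cut sites in WT replicate 1.

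Over the 40 regions, 23 had a higher and 17 a lower fitted level in Fam5snv/snv, and no region passed an adjusted p of 0.05 with edgeR, where 0% of all tested regions did. At an unadjusted p under 0.05 none of the 40 was higher, where 5.29% of all regions were, and none was lower, where 3.37% were. DESeq2 called none of the 40 higher (1.02% of all) and none lower (0.542% of all), and 1 region, the *Neurod1* promoter region, was below 0.05 before adjustment (unadjusted p = 0.0329). The CPM of both Fam5snv/snv libraries exceeded both WT libraries at 8 regions, 20% against a background of 23.2%, and lay below both at 7 regions, 17.5% against 21.4%. Per covered kb, both were above at 1 region (background 0.749%) and below at 25 regions, 62.5% against 61.7%. The shares of the 8, 7 and 25 regions were thus near the background. Only regions with a peak in every library were tested, and WT replicate 1 had a peak at just these 40 of the 233 regions. The 34 regions with peaks in both Fam5snv/snv libraries and neither WT library were not tested. They made up 14.6% of the 233, against 8.79% of all merged regions, and 25 of them were at *Ebf1*.

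The median log2 fold change was 0.08 over the 40 regions and 0.02 over all tested regions. The 9 promoter regions had a median of -0.20, with 7 lower and 2 higher (*Ptf1a* and *Ebf1*), and all 12647 tested promoter regions had a median of -0.21. The 31 regions away from promoters had a median of 0.21, and all others away from promoters 0.19. The median log2 CPM of the 40 regions had an SD of 0.23 between libraries of a genotype (n = 2 in each). With 2 libraries against 2, an exact permutation test of a single value cannot go below p = 0.333.

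At the level of gene windows, none of the 9 genes passed an adjusted p of 0.05 with edgeR, where 0% of all genes did. *Ebf1* alone had an unadjusted p under 0.05 and was higher (1 of 9, background 4.5%), and none was lower (background 1.67%). With DESeq2, which gave an adjusted p for 8 of the 9 and none for *Atoh1*, *Ebf1* was called higher (background 2.35%) and no gene lower (background 0.345%). The other log2 fold changes were -0.06 ± 0.17 at *Neurog1*, -0.24 ± 0.24 at *Neurog2*, -0.27 ± 0.18 at *Neurod1*, -0.17 ± 0.19 at *Neurod4*, -0.21 ± 0.42 at *Atoh1*, 0.41 ± 0.88 at *Ptf1a* and -0.22 ± 0.24 at *Insm1*. Their 95% intervals all included 0, with that of *Neurod1* from -0.72 to 0.18. All of these intervals except that of *Neurog1* (lower end -0.49) left room for a fall as large as the rise at *Ebf1*.

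Related genes were counted at their promoter regions. Of 11 other bHLH factors of neural lineages, 10 had a tested promoter region (*Neurod6* did not), 4 of them with a higher and 6 with a lower fitted level, and none with an unadjusted p under 0.05. Their median log2 fold change was -0.02. The smallest p was at *Neurog3*, the neurogenin of the endocrine pancreas, with 1.36 ± 0.85 (unadjusted p = 0.155, adjusted p = 0.636, edgeR), and then at *Atoh7*, a factor of retinal ganglion cells, with 0.54 ± 0.69. The 3 E proteins, the partners with which these bHLH factors bind DNA, had a median of -0.20, with values of -0.28 ± 0.22 at *Tcf3* and -0.20 ± 0.20 at *Tcf4*. Of 7 inhibitors of neurogenesis, 6 had a tested promoter region (*Rest* did not), with a median of -0.15, led by *Id4* (-0.43 ± 0.26, unadjusted p = 0.132) and *Hes5*, a Notch target (-0.25 ± 0.20).

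All 11 downstream differentiation factors had a tested promoter region, 10 with a lower and 1 with a higher fitted level and a median of -0.25, next to -0.21 for all promoter regions. Of these 11, *Onecut1*, a factor of spinal and hindbrain neurons, had -0.54 ± 0.21 (unadjusted p = 0.0392, adjusted p = 0.573) and was the only one with an unadjusted p under 0.05. *Hes6*, which promotes neuronal differentiation, came next with -0.48 ± 0.22 (unadjusted p = 0.0609, adjusted p = 0.588). None of these 4 lists held a region that passed the adjusted threshold with edgeR.

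Per barcode the signal was sparse. After each barcode was thinned to 567 cut sites, which left out 641 shallower barcodes of WT replicate 1, a cut site in any of the 9 gene windows was seen in 40.9% of barcodes of WT replicate 1 (exact binomial 95% interval 38.7 to 43.1%), 47.1% of WT replicate 2 (44.4 to 49.7%), 48.5% of Fam5snv/snv replicate 1 (46.4 to 50.6%) and 48.2% of Fam5snv/snv replicate 2 (46.4 to 50.1%). Unthinned, 48.3% and 72.7% of WT barcodes had one, against 82.1% and 84.7% of Fam5snv/snv barcodes. By gene, the thinned share was 12.4 and 15.3% in WT and 20.4 and 22.0% in Fam5snv/snv at *Ebf1*, where the intervals of the genotypes did not overlap. Such intervals also separated the 2 WT libraries from each other at *Ptf1a* (0.0565 to 0.530% against 1.36 to 2.93%). Thinning made the cut sites per barcode alike but not the peaks in which they are counted. At *Ebf1* these covered 11.8 and 37.6 kb of the window in WT against 51.3 and 77.8 kb in Fam5snv/snv. The same share was not computed for other genes, and the part of peak extent in it was not tested. At *Ebf2* the thinned share ranged from 12.9 to 16.3% over the libraries, at *Insm1* from 8.54 to 10.9% and at *Neurog1* from 3.57 to 5.01%. It was lowest at *Atoh1* (0.657 to 1.16%) and *Ptf1a* (0.207 to 2.03%). These intervals cover counting error only, barcodes are not replicates, and cells were not assigned to types here, so the share that stray fragments give was not measured.

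Of the 40 regions, 22.5% were promoter regions, against 35.4% of all tested regions, and 35% were intronic, against 23.4%, with 11 of the 14 intronic regions in *Ebf1*. Their median width was 2244 bp against 1922 bp, and their median GC content around the midpoint was 50% against 52.5%. AGGTCA on either strand was present within 100 bp of the midpoint in 3 of 40 regions (7.5%) against 15.8% of all, and its direct repeat (AGGTCANAGGTCA, up to 2 mismatches) in 1 of 40 (2.5%) against 4.71%. Over whole regions, the core was in 27 of 40 (67.5%) against 75.0% and the repeat in 18 of 40 (45%) against 35.96%. By length, the regions held 0.465 cores per kb against 0.828, and 0.176 repeats per kb against 0.229. In the 300-base RefSeq promoters, of which there are 9 for 7 of the genes, AGGTCA occurred in 1 of 9, that of *Neurog1*, 105 bases before the start, against 16.3% of 32851 promoters, and the repeat in 0 of 9 against 3.86%. These are letter matches, so they do not say which sites NR2F1 bound.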

How the data were processed

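Cells of E10.5 hindbrain were profiled by anti-NR2F1 single-cell CUT&Tag in 4 libraries. The authors deposited, per library, called peaks and a matrix of counts (cut sites by peak and by barcode), made with Cell Ranger ATAC on mm10 per the labels. The matrix headers give software version 1.2.0. The peaks were deposited with positions only. Peaks were called in each library on its own, so a count depends on that library's peak widths. Counts were summed over barcodes, and peaks were merged and annotated with GENCODE M21. Regions called in all 4 libraries with 10 or more cut sites in 2 or more, and sums over gene windows, were tested with edgeR 4.0.16 (R 4.3.3, quasi-likelihood, TMM, two-sided, no block), and p-values were adjusted by Benjamini-Hochberg over all regions or genes. The fit of regions had 2 residual degrees of freedom and a biological coefficient of variation of 0.305. DESeq2 1.42.0 was an alternative, and the procedure was tested on simulated data. No doublet caller or further cell filter was applied. The 9 genes and the related lists were chosen with earlier results of these data known. By rule, the promoter region and the region of highest WT density of each gene, the 3 regions of smallest p in each direction and the 2 smallest p of each list were named, and other regions were added for their repeats or to complete a gene. Libraries were pools of embryos, and p-values measure the spread between pools. One of the motor neuron markers is not reported here.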

Additional observations from a re-analysis of the deposited data

How the results depend on the processing

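No member region passed an adjusted p of 0.05 under any scaling, filter or window tried, nor with DESeq2. Leaving out libraries in turn gave 0 to 9 called regions, the 9 (8 higher, 1 lower) without WT replicate 2, where 17.7% of all regions were called. Among gene windows the count was 0 in edgeR, 1 (*Ebf1*) with DESeq2, and 0 to 3 when libraries were left out, the 3 being *Ptf1a*, *Insm1* and *Ebf1* without WT replicate 2, where 38.3% of all genes were called. With the replicate block, the median log2 fold change of the regions was 0.14 and no region or gene was called (*Ebf1* adjusted p = 0.484). Same-numbered libraries shared only a number (correlation of deviations 0.0292). The median over regions, 0.08, was 1.05 when scaled to barcodes (0.97 over all regions), 0.53 with regions called in at least 2 libraries (0.61 over all) and -0.74 per covered length (-0.76 over all), and -0.09 to 0.25 with libraries left out. Shares of barcodes rose to 48.3, 72.7, 82.1 and 84.7% without thinning, and the share of regions with AGGTCA to 67.5% over whole regions. Some fitted log2 fold changes, none past the threshold, changed sign. Scaled to barcodes, the *Neurog1* regions were at 0.65 (exon region) and 0.77 (promoter), *Neurog2* at 0.59 (promoter) and 0.18, *Neurod1* at 0.58, *Neurod4* at 0.82 (promoter) and 0.60, *Atoh1* at 0.61 (promoter) and 0.74, the *Insm1* promoter at 0.73 and the *Ebf2* promoter at 0.75, and the windows of *Neurog1*, *Neurog2*, *Neurod1*, *Neurod4*, *Atoh1* and *Insm1* at 0.80, 0.61, 0.66, 0.75, 0.64 and 0.80, all below the shift of all regions or, for windows, of all genes (0.90). Per covered length, the upstream *Neurog1* region was at -0.66, the *Ptf1a* promoter at -1.23, the *Ebf1* promoter at -1.48, the *Ebf1* region 123 kb in at -0.10 and the densest *Ebf2* region at -0.41. The last was at -0.0062 with DESeq2, at -0.0064 with its size factors in edgeR and at -0.14 without a factor. The *Insm1* promoter was at 0.018 with regions covered to at least 50%, and the *Neurog1* window at 0.060 with regions called in all 4 libraries. With libraries left out, ranges were -0.37 to -0.02 at the *Neurog1* promoter, -0.74 to -0.14 at the upstream *Neurod4* region, -0.59 to -0.04 at the *Atoh1* promoter, -0.46 to 0.046 at the *Neurog1* exon region, -0.22 to 0.014 at the *Neurod4* promoter, -0.45 to 0.31 at the distal *Atoh1* region, -0.14 to 1.49 at the *Ptf1a* promoter, -0.051 to 0.80 at the *Ebf1* promoter, -0.36 to 0.48 at the densest *Ebf2* region, and -0.18 to 0.070, -0.41 to 2.69 and -0.49 to 0.11 at the windows of *Neurog1*, *Ptf1a* and *Insm1*. The cause of these changes was not tested.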
